A study of Danio rerio with 8 samples.

Results

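Absorptive enterocytes take up the products of digestion across a microvillus brush border. They re-esterify dietary lipid and package it with apolipoprotein B, by way of the microsomal triglyceride transfer protein, into lipoproteins that leave the cell toward the circulation. In zebrafish larvae, lipoproteins are also made by the liver and by the yolk syncytial layer, which exports yolk lipid, so apolipoprotein transcripts are shared between tissues, whereas peptide transport and brush border peptidases are best known from the intestine. The genes described here are 10 transcripts of enterocyte absorption and lipoprotein assembly, chosen by symbol. They are *slc15a1b*, *anpepb*, *vil1*, *fabp2*, *rbp2a*, *mttp*, *apobb.1*, *apoa4b.1*, *apoa1a* and *cdx1b*, and all 10 were found among the 20409 genes of the deposited table.

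RNA was sequenced from whole larvae at 4 dpf in 8 libraries, 4 of *elipsa* mutants and 4 of controls. Mutants were homozygous for the *traf3ip1* tp49d allele and were picked by their curled-down tail, and controls were a mixture of wild-type and heterozygous larvae from the same in-crosses of heterozygous fish. No larva received a treatment, and each tube pooled circa 30 larvae. Each of 4 separate breedings, called clutches here, gave 1 mutant tube and 1 control tube that were processed together, so the libraries of a clutch form a pair. Values are the authors' log2 CPM, and the spread given is the SD over 4 libraries. In whole larvae, transcripts cannot be assigned to an organ, and fewer enterocytes and less RNA per enterocyte cannot be told apart.

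The mutated gene served as a check of the labels. *traf3ip1*, which encodes the intraflagellar transport protein IFT54, averaged 1.98 ± 0.32 in mutants and 2.81 ± 0.16 in controls (log2 CPM, SD, n = 4 each), without overlap between the groups (limma, difference -0.83, SE 0.18, adjusted p = 0.0751). How deeply each library was sequenced is unknown, because the deposited values have nearly identical distributions. The libraries of clutch 1 stood apart from those of clutches 2 to 4. Against the other clutches, clutch 1 differed in 26.9% of all genes, clutch 2 in 4.46%, clutch 3 in 2.09% and clutch 4 in 15.4% (limma, adjusted p under 0.1, genotype and clutch in the fit). Genotype and clutch are therefore given side by side for each gene.

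The genes other than the apolipoprotein genes were lower in mutants than in controls in every clutch. In 7 of the 10 genes, *slc15a1b*, *anpepb*, *vil1*, *fabp2*, *rbp2a*, *mttp* and *cdx1b*, the mutant library was below its control in all 4 clutches, which 14.4% of all genes did. Across the pooled libraries the same 7 genes were also displaced by the clutch, since both libraries of clutch 1 were below every library of their own genotype in clutches 2 to 4 (14.9% of all genes). The apolipoprotein genes *apobb.1*, *apoa1a* and *apoa4b.1* did not share this pattern.

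**Figure D1:**
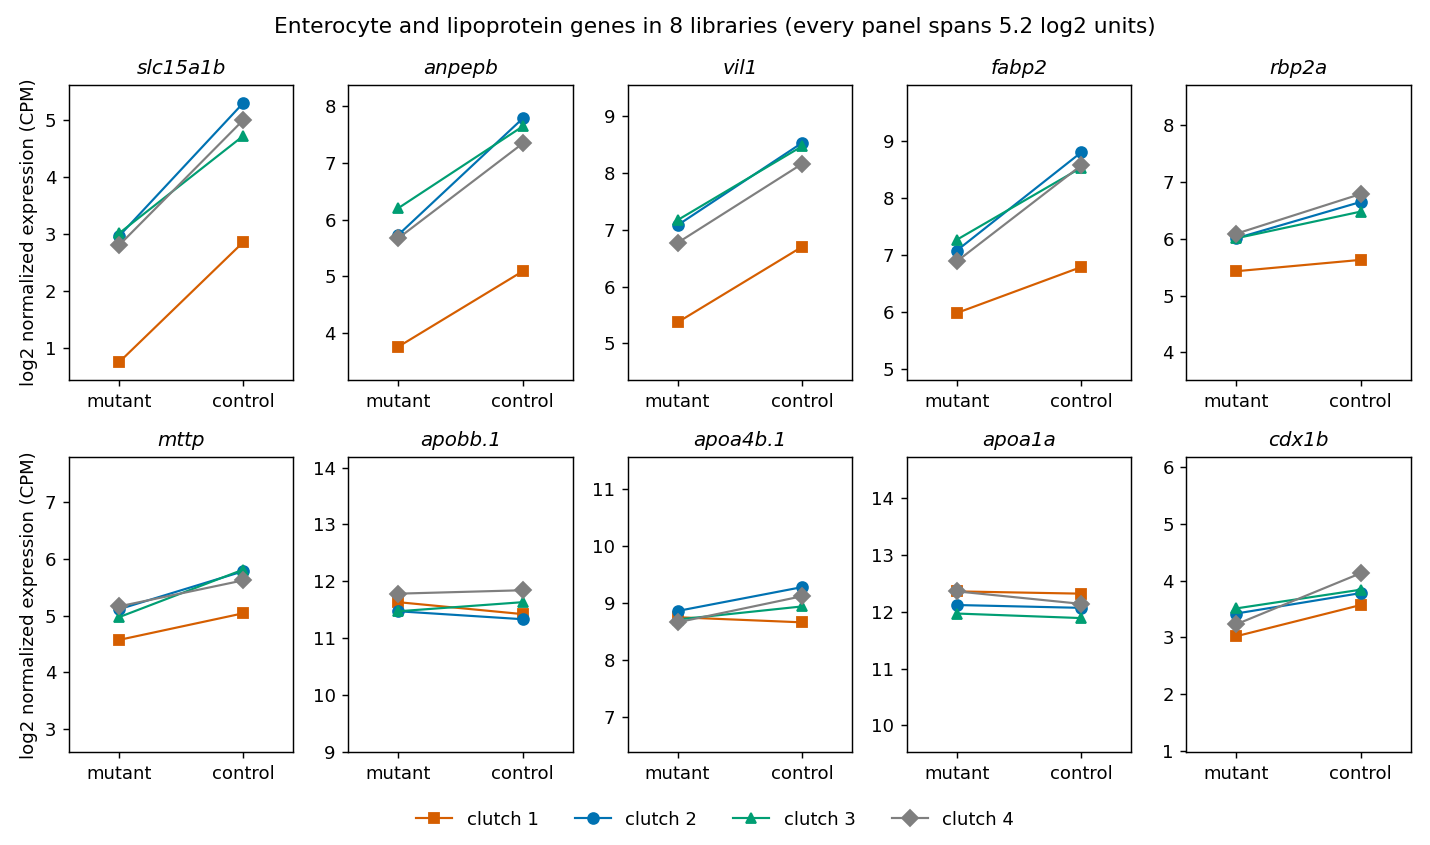
Log2 CPM of the 10 enterocyte and lipoprotein genes in each library, with mutants left of controls in each panel, 1 marker and colour per clutch, and a line joining the mutant and control tube of a clutch. All panels span the same number of log2 units. *slc15a1b* and *anpepb* were low in both clutch 1 libraries, at 0.74 and 3.76 in the mutants and at 2.86 and 5.09 in the controls. The pooled genotypes overlapped in every gene but *cdx1b*.

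*slc15a1b* encodes the proton-coupled oligopeptide transporter PepT1 of the enterocyte brush border. Its log2 CPM was 0.74, 2.96, 3.01 and 2.80 in mutants of clutches 1 to 4, against 2.86, 5.31, 4.73 and 5.01 in their controls. Every mutant was below the control of its own clutch, but the control of clutch 1 was lower than the mutants of clutches 2 and 3, so the pooled groups overlapped. The difference was -2.10 (SE 0.62), 4.28-fold lower in mutants, and missed the threshold without a clutch term (limma, adjusted p = 0.219). With clutch as a block the SE was 0.12 and the gene was called lower (adjusted p = 4.69e-05). Within clutches the mutant minus control difference was -2.11, -2.34, -1.72 and -2.21.

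*anpepb* encodes aminopeptidase N, a brush border enzyme that removes single amino acids from peptides. It was at 3.76, 5.73, 6.20 and 5.67 log2 CPM in mutants, against 5.09, 7.78, 7.64 and 7.34 in controls. The clutch 1 control was below the mutants of the other clutches. The difference was -1.62 (SE 0.66, adjusted p = 0.378 by limma), and the gene was called lower with clutch as a block (SE 0.11, adjusted p = 8.05e-05), at 3.07-fold. The smallest within-clutch difference was that of clutch 1 (-1.33) and the largest that of clutch 2 (-2.05).

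*vil1* encodes villin, an actin-bundling protein of the microvillus core. Mutants had 5.37, 7.08, 7.17 and 6.77 log2 CPM and controls had 6.70, 8.53, 8.47 and 8.16. Its within-clutch differences were the most even of the genes called lower, at -1.33, -1.45, -1.30 and -1.39. The mean difference was -1.37 with an SE of 0.48 without a clutch term (limma, adjusted p = 0.296) and of 0.05 with clutch as a block (adjusted p = 1.99e-05), 2.58-fold lower in mutants.

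*fabp2* encodes the intestinal fatty acid-binding protein, which carries fatty acids in the enterocyte cytosol. It was at 5.98, 7.08, 7.27 and 6.89 log2 CPM in mutants, against 6.79, 8.81, 8.54 and 8.58 in controls. The clutch 1 control was below all 3 mutants of clutches 2 to 4. The difference was -1.37, 2.59-fold lower in mutants (SE 0.43, limma adjusted p = 0.248, and SE 0.13 with clutch as a block, adjusted p = 0.000494). Its difference in clutch 1 was -0.81, against -1.72, -1.27 and -1.68 in clutches 2 to 4.

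*rbp2a* encodes a cytosolic retinol-binding protein. Mutants had 5.43, 6.01, 6.01 and 6.09 log2 CPM and controls had 5.63, 6.65, 6.48 and 6.79. The clutch 1 control was again below the mutants of clutches 2 to 4. The difference was -0.50 (SE 0.24, limma adjusted p = 0.458), and it was called lower with clutch as a block (SE 0.08, adjusted p = 0.00783), at 1.42-fold. Within clutches it was -0.20, -0.64, -0.47 and -0.71.

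*mttp* encodes the transfer protein that loads lipid onto nascent apolipoprotein B. It was at 4.57, 5.11, 4.97 and 5.16 log2 CPM in mutants, against 5.04, 5.78, 5.81 and 5.62 in controls. The clutch 1 control lay among the mutants of clutches 2 to 4. The difference was -0.61, 1.52-fold lower in mutants (SE 0.19, limma adjusted p = 0.24), and the gene was called lower with clutch as a block (SE 0.08, adjusted p = 0.00208).

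*cdx1b* encodes a caudal-type homeobox transcription factor of the intestinal epithelium. Mutants had 3.02, 3.42, 3.51 and 3.23 log2 CPM and controls had 3.57, 3.78, 3.84 and 4.13. It was the only 1 of the 10 genes whose mutant and control libraries did not overlap across all clutches (3.34% of all genes with mutants lower). The difference was -0.53, 1.45-fold lower in mutants (SE 0.15, limma adjusted p = 0.197, and SE 0.11 with clutch as a block, adjusted p = 0.023). Its within-clutch difference ranged over -0.33 in clutch 3 and -0.90 in clutch 4.

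*apoa4b.1* encodes an apolipoprotein A-IV, a lipoprotein component of intestine and yolk syncytial layer. It was at 8.75, 8.86, 8.71 and 8.66 log2 CPM in mutants, against 8.66, 9.28, 8.94 and 9.12 in controls. The mutant was higher in clutch 1, by 0.09, and lower in clutches 2, 3 and 4, with differences of -0.42, -0.23 and -0.46. The mean difference of -0.26 missed the threshold without a clutch term (SE 0.13, limma adjusted p = 0.462) and with it (SE 0.09, adjusted p = 0.117). Without clutch 1 and with clutch as a block, it was -0.37 (adjusted p = 0.0202). The paralog *apoa4b.3* lies 2 genes away in the RefSeq order, and reads shared between such copies may be split between them. This was not tested.

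*apobb.1* encodes an apolipoprotein B, the structural protein of intestinal, hepatic and yolk-derived lipoproteins. It was at 11.63, 11.47, 11.47 and 11.78 log2 CPM in mutants, against 11.42, 11.33, 11.63 and 11.84 in controls. The difference was 0.03 (SE 0.13, limma adjusted p = 0.949, and SE 0.08 with clutch as a block, adjusted p = 0.847), with mutants higher in clutches 1 and 2 and lower in clutches 3 and 4. The sign of this mean difference changed when single clutches or libraries were left out.

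*apoa1a* encodes an apolipoprotein A-I, the main protein of high-density lipoproteins. Mutants had 12.36, 12.12, 11.97 and 12.36 log2 CPM and controls had 12.32, 12.07, 11.89 and 12.14. The mutant was above its control in all 4 clutches, by 0.04, 0.04, 0.08 and 0.22, as in 3672 of all 20409 genes. The mean difference of 0.10 missed the threshold (SE 0.14, limma adjusted p = 0.833, and SE 0.08 with clutch as a block, adjusted p = 0.495).

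**Figure D2:**
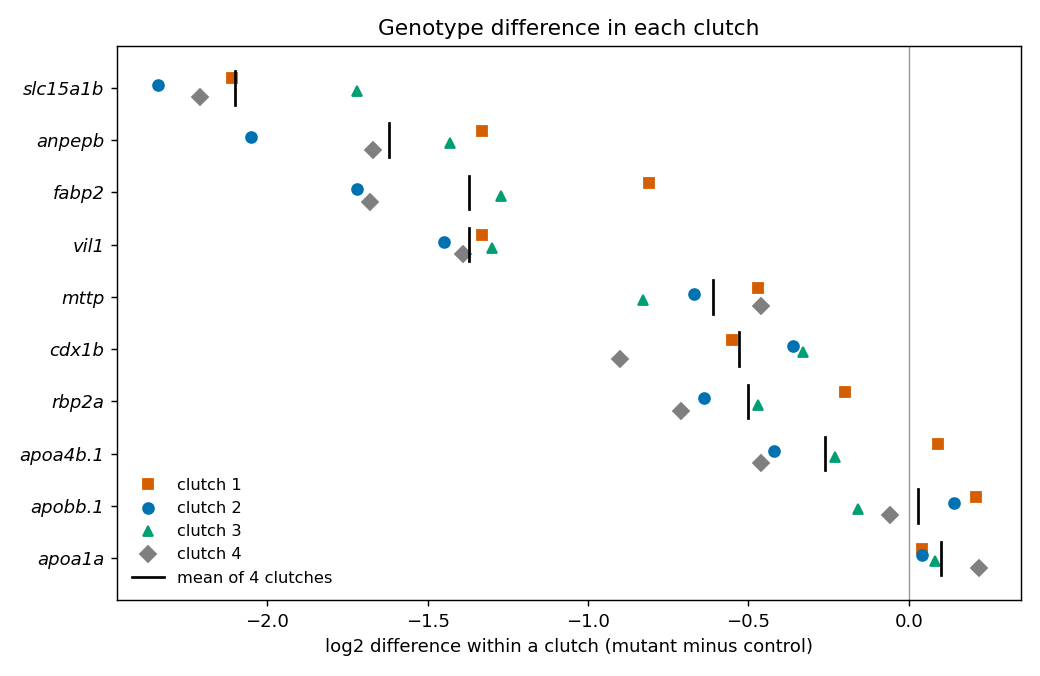
Mutant minus control difference in log2 CPM within each of the 4 clutches (markers) and its mean (vertical bar), for each of the 10 genes. Points of *slc15a1b*, *anpepb*, *vil1*, *fabp2*, *rbp2a*, *mttp* and *cdx1b* lie below 0 in every clutch, those of *apoa1a* lie above 0 in every clutch, and those of *apobb.1* and *apoa4b.1* lie on both sides.

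Without a clutch term, 0 of the 10 genes passed an adjusted p under 0.1 (limma), against 1.52% of all genes (1.16% lower and 0.363% higher). In the same fit, 6 of the 10 had an unadjusted p under 0.05, as had 2439 of all 20409 genes. With clutch as a block, 7 of 10 were called lower and 0 higher, against 7.86% of all genes called lower and 14.3% called in either direction. The 7 called lower were the absorption genes, *mttp* and *cdx1b*. The median genotype difference was -0.57 over the 10 genes and 0.03 over all genes. Within clutches 2 to 4 alone, mutants and controls did not overlap in 8 of the 10 genes, with mutants lower (11.2% of all genes). Leaving out clutch 1, the fit without a clutch term called 7 of the 10 genes lower (5.27% of all genes called, 4.1% lower). Leaving out only the clutch 1 control, it called 8 (5.35% of all genes called, 3.95% lower). That last fit keeps the clutch 1 mutant without its pair, so the clutch 1 shift enters its genotype difference.

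The shift of clutch 1 had a similar order of size to the genotype difference in the absorption genes. Relative to clutches 2 to 4, with genotype in the fit, *anpepb* was lower in clutch 1 by a log2 difference of -2.31 (SE 0.12, limma adjusted p = 1.17e-05), or 4.94-fold. *slc15a1b* differed by -2.17 (SE 0.13, adjusted p = 2.66e-05) and *vil1* by -1.66 (SE 0.06, adjusted p = 2.69e-06). *fabp2* differed by -1.47 (SE 0.15, adjusted p = 0.000514), *rbp2a* by -0.81 (SE 0.10, adjusted p = 0.00106) and *mttp* by -0.61 (SE 0.09, adjusted p = 0.00296). In all 6, the clutch 1 libraries of both genotypes were the lowest of their group. Clutch 1 is a single breeding. The SE comes from how far the genotype difference varied between clutches, so these p-values do not measure the spread between breedings. Against the other clutches, clutch 1 included, *vil1* was also called higher in clutches 2, 3 and 4 (0.70, 0.72 and 0.25). Likewise *anpepb* was called in clutch 3 (1.03) and *slc15a1b* in clutch 2 (0.94).

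Among the other 4 of the 10 genes, *cdx1b* was at -0.36 in clutch 1 (SE 0.13, limma adjusted p = 0.0923) and *apoa1a* was at 0.25 (SE 0.09, adjusted p = 0.0914), the only gene of the 10 called higher there. Each call was lost in 11 of 18 alternatives, with the adjusted p reaching 0.323 for *cdx1b* and 0.395 for *apoa1a*. *apoa4b.1* differed by -0.22 (SE 0.10, adjusted p = 0.165) and *apobb.1* by -0.06 (SE 0.10, adjusted p = 0.699), and neither was called. In total 7 of the 10 genes were called lower in clutch 1 and 1 higher, against 12.6% and 14.3% of all genes. The median shift was -0.71 over the 10 genes and 0.04 over all genes.

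**Figure D3:**
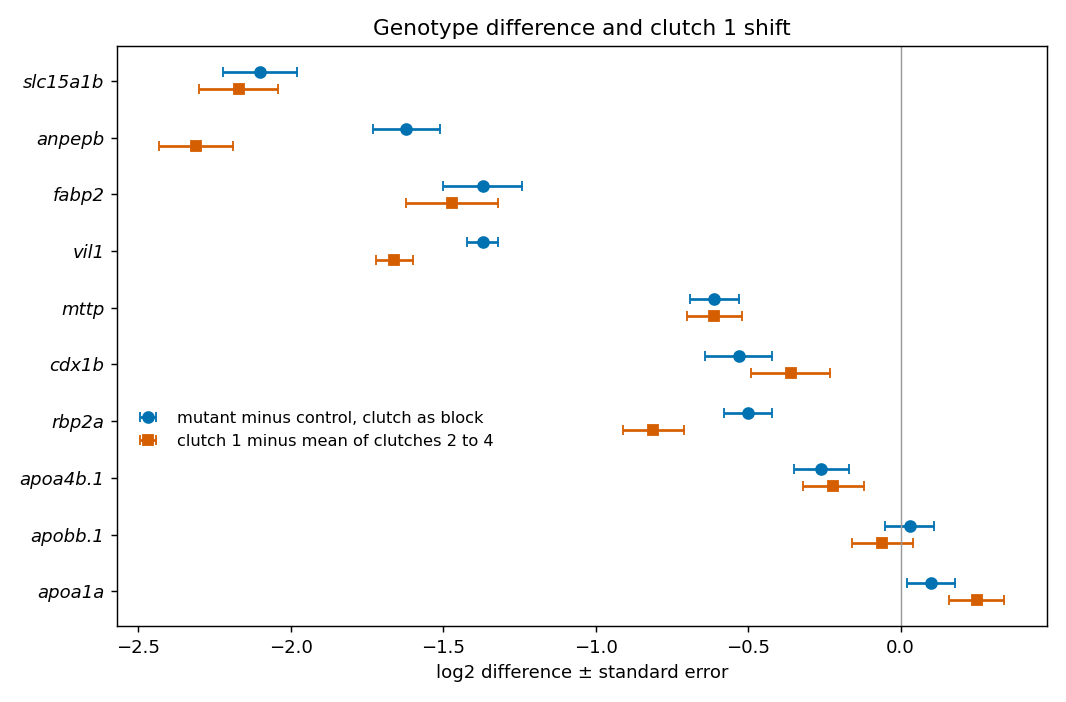
Genotype difference (mutant minus control, clutch as a block) and clutch 1 shift (clutch 1 minus clutches 2 to 4) of the 10 genes, in log2 CPM with standard errors. *slc15a1b* (-2.10 and -2.17), *anpepb* (-1.62 and -2.31), *vil1* (-1.37 and -1.66) and *fabp2* (-1.37 and -1.47) are far below 0 on both measures, and *apobb.1* (0.03 and -0.06) is near 0 on both.

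In the control of clutch 1, several of these transcripts were as low as in mutants of the other clutches. In 9 of the 10 genes the clutch 1 control was at or below the highest mutant of clutches 2 to 4, which 68.4% of all genes were, so the count is read only against that share. The genotype difference itself was tested for a difference between clutch 1 and clutches 2 to 4. None of the 10 genes was called (limma, 0 of 10, against 0.0049% of all genes). An unadjusted p under 0.05 was found in 474 of all 20409 genes and in 1 of the 10. That gene was *fabp2*, whose genotype difference was smaller in clutch 1 by 0.75 on the log2 scale (SE 0.23, limma adjusted p = 1.0). Clutch 1 entered that test with 1 pair of libraries. The fit had no term pairing the libraries within clutches 2 to 4, so the spread between those clutches entered its SE. The absence of calls therefore cannot show that the genotype difference was the same in clutch 1.

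The 7 genes called lower with clutch as a block varied together. Over the 8 libraries, Pearson's r between pairs of them was 0.84 to 0.99 with a median of 0.95 over 21 pairs, as a description. The points are 4 pairs of tubes that share a clutch and a common normalization, so genotype and clutch both enter r. The 7 were picked by their call in these same libraries. High r among them, and lower r for the genes left out, follows in part from that choice. Against the mean of the other members, r was 0.772 for *apoa4b.1*, 0.044 for *apobb.1* and -0.625 for *apoa1a*. Among the genes outside the set whose pattern over the 8 libraries was most like the members' mean standardised value were *tprg1* (r = 0.994), *LOC101885757* (0.993), *tsku* (0.993), *tspan13a* (0.992) and *mep1a.2* (0.992). Of these, *mep1a.2*, a meprin peptidase, was at -1.86, -0.39, -0.67 and 0.20 log2 CPM in mutants, against -0.61, 2.72, 1.73 and 2.69 in controls. The mutant values of *mep1a.2* are low, so its pattern is less precise. It is also among the brush border hydrolases counted below.

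Most other genes of the brush border moved in the same direction. Of 20 brush border hydrolases besides *anpepb*, 0 passed the threshold without a clutch term (limma). With clutch as a block, 15 were called lower and 1 higher (7.86% and 6.48% of all genes). Clutches 2 to 4 alone, in the same fit, gave 16 lower and 0 higher (8.04% and 6.07% of all genes in that fit), and the corresponding counts for the next 3 lists, of structure, transporters and lipid uptake, were 17 and 0, 15 and 1, and 13 and 0. In clutch 1, 16 of the hydrolases were called lower and 0 higher (12.6% and 14.3% of all genes). The median genotype difference was -0.97 and the median clutch 1 shift -1.36. Sucrase-isomaltase *si* differed by -1.55 between genotypes (SE 0.08 with clutch as a block, adjusted p = 2.76e-05) and by -2.39 in clutch 1. The neutral ceramidase *asah2* differed by -1.80 and -1.95, and the alkaline phosphatase *alpi.2* by -1.42 and -1.65. The paralog *anpepa* was at -1.23 (SE 0.11, adjusted p = 0.00036).

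Structural genes of the microvillus and lateral membrane gave a like count. Of 23, 0 were called without a clutch term. In the fit with clutch as a block, 16 were called lower and 1 higher (7.86% and 6.48% of all genes). In clutch 1, 18 were called lower and 0 higher (12.6% and 14.3% of all genes). The microvillus myosin *myo7bb* differed by -1.44 between genotypes (SE 0.10, adjusted p = 9.47e-05) and by -1.57 in clutch 1. The protocadherin *cdhr2*, which links neighbouring microvilli, differed by -1.50 and -1.90. *cdh17*, an intestinal cadherin, was at -0.11 between genotypes (adjusted p = 0.456 with clutch as a block) and at -0.86 in clutch 1.

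Among 29 solute transporters, 0 were called without a clutch term. In the fit with clutch as a block, 13 were called lower and 1 higher (7.86% and 6.48% of all genes). In clutch 1, 17 were called lower and 1 higher (12.6% and 14.3% of all genes). The sodium-glucose cotransporter *slc5a1* differed by -1.47 between genotypes (SE 0.12, adjusted p = 0.000196) and by -1.99 in clutch 1. The anion exchanger *slc26a3.2* differed by -1.44 between genotypes. *slc15a1a*, the second PepT1 gene, differed by -1.64 and -1.79.

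In 27 genes of lipid uptake and re-esterification, 15 were called lower and 1 higher in the fit with clutch as a block (7.86% and 6.48% of all genes). In clutch 1, 17 were called lower and 1 higher (12.6% and 14.3% of all genes). Without a clutch term 1 of 27 was called (1.52% of all genes), *gpat3*, a glycerol-3-phosphate acyltransferase (-0.34, limma adjusted p = 0.0859). The fatty acid translocase *cd36* differed by -1.35 between genotypes (SE 0.12, adjusted p = 0.000363 with clutch as a block) and by -1.78 in clutch 1. *npc1l1*, the cholesterol uptake protein, differed by -0.99 and -1.70. The ileal-type bile acid-binding protein gene *fabp6* differed by -1.37 and -3.25.

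Genes around *rbp2a* were more often called lower than higher in mutants, and went in both directions in clutch 1. Of 24 genes of retinoid and carotenoid handling, 11 were called lower and 2 higher in the fit with clutch as a block (7.86% and 6.48% of all genes). In clutch 1, 8 were lower and 5 higher (12.6% and 14.3% of all genes). The retinol acyltransferase gene *lratb.2* was the 1 gene called without a clutch term (-1.61, limma adjusted p = 0.0316), and its clutch 1 shift was 0.40 (adjusted p = 0.322). The carotenoid-cleaving enzyme gene *bco1l* differed by -1.40 between genotypes (adjusted p = 0.000752 with clutch as a block) and by -2.58 in clutch 1. The paralog *rbp2b* was at -0.10 between genotypes (adjusted p = 0.534 with clutch as a block).

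Apolipoprotein and lipoprotein-handling genes went in both directions. Of 26 besides the members, 0 were called without a clutch term. In the fit with clutch as a block, 5 were called lower and 3 higher (7.86% and 6.48% of all genes). In clutch 1, 11 were called lower and 5 higher (12.6% and 14.3% of all genes). The median genotype difference was -0.05. *apoda.2*, an apolipoprotein D gene, had the smallest p of the list in the block fit (-0.85, adjusted p = 0.000541) and differed by -2.89 in clutch 1. *apoa4b.3* was called lower in mutants (difference -1.03), as was *apoa4b.2* (-0.72). *apobb.2*, an apolipoprotein B paralog of *apobb.1*, was higher in mutants by 0.88 (adjusted p = 0.00229 with clutch as a block), in all 4 clutches, and higher in clutch 1 by 1.58. *apoba* was higher in mutants by 0.40. Reads shared between such paralogs may be split between them, which was not tested.

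Of 32 intestinal transcription factor genes, the 1 called lower without a clutch term was *pdx1* (-1.05, limma adjusted p = 0.02), which is shared with the pancreas, and the 1 called higher was *hnf1bb* (0.79, adjusted p = 0.0614). With clutch as a block, 5 were called lower and 3 higher, beside 7.86% and 6.48% of all genes. In clutch 1, 8 were called lower and 4 higher (12.6% and 14.3% of all genes). *cdx1a*, the paralog of *cdx1b*, differed by -1.04 between genotypes (SE 0.15, adjusted p = 0.00449) and by -0.98 in clutch 1. Of 24 genes of lysosome-rich enterocytes, the protein-absorbing cells of the distal intestine, 8 were called lower and 2 higher in the fit with clutch as a block. In clutch 1, 15 were lower and 0 higher, beside the same shares of all genes. With clutch as a block, *lrp2b* had the smallest p of this list (-2.02, limma adjusted p = 0.000281), and it differed by -2.39 in clutch 1. The 1 gene of this list called without a clutch term went the other way. It was *ctsla*, a cathepsin L gene, which was higher in mutants (0.37, limma adjusted p = 0.0757) and in all 4 clutches.

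**Figure D4:**
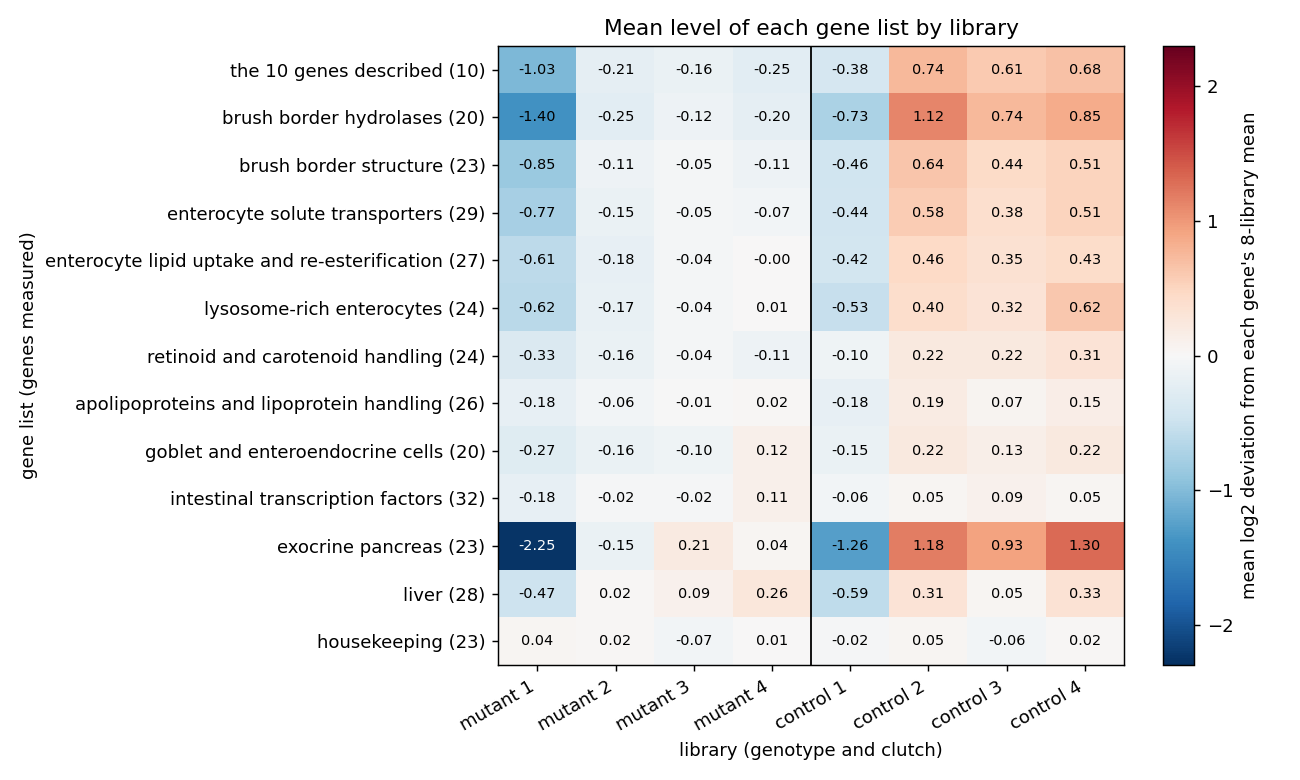
Mean log2 CPM of each gene list in each library, after each gene was set relative to its own mean over the 8 libraries, with mutants left of controls and the number of genes in brackets. Exocrine pancreas genes were at -2.25 in the clutch 1 mutant and -1.26 in the clutch 1 control, and brush border hydrolases, at -1.40 and -0.73, were also lowest in these libraries.

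Exocrine pancreas genes were lower both in mutants and in clutch 1. Of 23 exocrine pancreas genes, 0 were called without a clutch term. With clutch as a block, 21 were called lower (7.86% of all genes), and 22 in clutches 2 to 4 alone (8.04%). In clutch 1, 22 were called lower (12.6% of all genes). The genes had median differences of -1.10 between genotypes and -2.46 in clutch 1. Their summed linear CPM was 716 in the clutch 1 mutant and 3164 to 3894 in the other mutants, against 1351 in the clutch 1 control and 6108 to 8023 in the other controls. *prss1*, a trypsin gene, differed by -0.88 between genotypes and *ctrb1*, a chymotrypsinogen gene, by -0.87. *pla2g1b*, a secreted phospholipase gene, differed by -2.10 between genotypes and by -3.65 in clutch 1.

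Of 28 liver genes, 0 were called without a clutch term. In the fit with clutch as a block, 3 were called lower and 4 higher (7.86% and 6.48% of all genes), with a median genotype difference of -0.02. In clutch 1, 19 were called lower and 2 higher (12.6% and 14.3% of all genes), with a median of -0.39. Their summed CPM was 6894 in the clutch 1 mutant and 8797 to 9503 in the other mutants, against 6673 in the clutch 1 control and 8814 to 11460 in the other controls. The liver fatty acid-binding protein gene *fabp10a* differed by -1.88 in clutch 1. No marker in either list was at the lowest deposited value in any library. Of 23 housekeeping genes, 0 were called higher and 1 lower between genotypes with clutch as a block (6.48% and 7.86% of all genes). In clutch 1, 3 of them were called higher and 2 lower (14.3% and 12.6% of all genes). The part that these other organs have in the differences of the absorption genes was not tested.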

How the data were processed

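Whole larvae were measured by RNA sequencing. The authors used SOAPnuke for read filtering, HISAT2 and Bowtie2 for alignment and RSEM for counting, removed genes with a mean CPM of 1 or less, and deposited voom-normalized log2 values for 20409 genes. The submitters' processing notes name the build GRCz11. Back-transformed, a library sums to between 997999 and 998008, and sorted values are nearly identical between libraries, as quantile normalization leaves them. Depth is therefore unknown. The authors' comparison columns (log2 fold change, mean expression, statistic, p-values, log odds) were not used.

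Mutants and controls were compared with limma 3.58.1 in R 4.3.3 (moderated, mean-variance trend, two-sided, Benjamini-Hochberg over all genes, called at adjusted p under 0.1) without a clutch term, as the study's methods name none. This fit without a clutch term called 311 genes (237 lower and 74 higher). The paper reports more differentially expressed genes at the same adjusted p threshold. The calls of this fit are therefore not the calls of the study. The fit with a clutch block is given beside the fit without a clutch term. The pairing comes from the breedings. In clutches 1 to 4, deviations of mutant and control from their group means had correlations of 0.64, 0.325, 0.334 and 0.458, each above those with other clutches. The fit was tested on simulated data. The 10 genes and 13 lists were chosen with earlier results of these data known. Genes named from a list were up to 4 called genes by smallest p per test, with *cdh17* and *prss1* as cell type markers, and paralogs of the 10 genes chosen after their values were seen. Some genes that these rules name are not reported here. Names were matched with a RefSeq table of another build, without coordinates. Python 3.11.15 with matplotlib 3.10.9 drew the figures.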

Additional observations from a re-analysis of the deposited data

Results flagged for a closer look

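A library was singled out where its gap to the nearest other library, divided by the range of its group of 4, exceeded the critical value of Dixon for 4 values. Of 20 groups examined (10 genes in each genotype), 4 were singled out, and chance does this in about 1 in 20 independent groups. These groups share libraries and most of the genes vary together, so the 4 cannot be set against that rate. All 4 were libraries of clutch 1 at the low end of their group. The clutch 1 mutant had 0.74 log2 CPM of *slc15a1b* (gap over range 0.906) and 5.43 of *rbp2a* (0.877). The clutch 1 control had 6.79 of *fabp2* (0.866) and 5.09 of *anpepb* (0.836). The same library shift gives the clutch 1 values in the comparison of clutches, so these are not separate evidence of it.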

How the results depend on the processing

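The count of genes called between genotypes depends on the clutch. Without a clutch term it was 0, and it was 3 with library weights (*fabp2*, *mttp* and *slc15a1b*). With the pairing in the fit (replicate block) it was 7, likewise 7 with a pseudocount of 1 and at an adjusted p under 0.05, and 8 with housekeeping centring. Alternatives chosen after seeing the data, the block with a mean log2 of at least 1 or with no trend, gave 8 and 7. Leaving out 1 library or clutch, the count was 0 to 8 without the block, with 7 without clutch 1 and 8 without the clutch 1 control, and 7 to 8 with the block. Without its control, the clutch 1 mutant stays in the fit unpaired, so the clutch 1 shift enters that count. Counts for clutch 1 stayed at 6 to 8, and those for the interaction at 0.

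Signs turned only in values that missed the threshold. The *apobb.1* genotype difference was -0.05 with library weights, -0.03 without clutch 1 and -0.0046 without clutch 2 (each with or without the block), -0.01 and -0.04 without the controls of clutches 1 and 2, and -0.03 without the clutch 4 mutant, with a highest value of 0.13 without the clutch 4 control. In clutch 1, without its control, *apoa4b.1* was at 0.0058 and *apobb.1* at 0.05, the value of *apobb.1* also without clutch 4, while their lowest values, -0.45 and -0.18, came without the clutch 1 mutant. The interaction was 0.33 (pseudocount 1) and 0.17 (without clutch 3, and -0.15 without clutch 2) for *slc15a1b*, -0.03 (housekeeping centred) and -0.01 (library weights) for *vil1*, and 0.07 and 0.09 without clutches 2 and 3 for *cdx1b*, against -0.20 without clutch 4. The cause of each change was not tested. Unknown depth and 4 pairs limit the precision.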

Other observations

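Genes of goblet and enteroendocrine cells, other epithelial cells of the gut, were also examined. In RNA of whole larvae, their transcripts cannot be assigned to the gut. Of 20 goblet and enteroendocrine genes, 1 was called lower without a clutch term, the cholecystokinin gene *ccka* (-1.04, limma adjusted p = 0.0148), whose clutch 1 shift was -0.34 (adjusted p = 0.113). With clutch as a block, 4 were called lower and 0 higher (7.86% and 6.48% of all genes). The goblet cell gene *agr2* differed by -0.67 between genotypes (adjusted p = 0.00259 with clutch as a block), and *pyyb*, a peptide hormone gene, was at -0.21 between genotypes (adjusted p = 0.382) and at -1.21 in clutch 1 (adjusted p = 0.00151). Of 18 symbols listed for yolk and the yolk syncytial layer, 10 were found. With clutch as a block, 1 of the 10 was called lower and 0 higher (7.86% and 6.48% of all genes). The 1 was *ctsl.1*, which is also in the list of lysosome-rich enterocytes. In clutch 1, 2 of the yolk genes were called lower and 1 higher (12.6% and 14.3% of all genes), which is near those shares. Their summed CPM was 1703 to 2106 in mutants, against 1758 to 2124 in controls.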
